A study of Mus musculus with 14 samples.

Results

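The integrated stress response and the serine synthesis pathway were followed as a module of 38 genes in RNA-seq of mouse hepatocellular carcinoma (HCC) cells. The 38 genes were picked by symbol, as transcription factors, enzymes, transporters, secreted factors and translation regulators of this response, from 24946 gene symbols with a value, and all 38 passed the filter on low values (a mean of at least 10 over the libraries), as did 12693 genes in all. The cells, cultured for 24 h in DMEM with 10% calf serum, came from diethylnitrosamine-induced liver tumors of mice with a floxed Acly gene and were of 4 genotypes, with 14 libraries. WT (the line D42V, replicates 1 to 4) and ACLY KO (D42C4V, replicates 1 to 4, a clone that lost Acly after adenoviral Cre) both carried an empty LentiCRISPR v2 vector. ACSS2 KO (D42 Sg2-3, replicates 1, 2 and 4) and DKO1 (D42C4 Sg2-2, replicates 1, 3 and 4) were single-cell clones. They were made with a CRISPR guide against the first exon of Acss2 in the WT and in the ACLY KO cells. The paper describes puromycin after transduction without setting the empty-vector cells apart. After the vector, WT and ACLY KO were kept as bulk populations, whereas ACSS2 KO and DKO1 were cloned. ACLY makes acetyl-CoA from citrate and ACSS2 makes it from acetate, so DKO1 lacks both enzymes. Each knockout genotype is 1 clone, so the genotype and the clone cannot be told apart, and although the study calls its replicates biological, it does not say how the cultures behind the libraries were kept apart, so the p-values measure only the spread between these libraries.

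In the integrated stress response, kinases that sense amino acid shortage, unfolded protein, viral RNA or heme shortage phosphorylate the translation factor eIF2. General translation then slows while the messenger RNA of ATF4 is translated more, so ATF4 activity is set largely at the protein level. ATF4 binds DNA in pairs with C/EBP family proteins at composite C/EBP-ATF response elements and induces genes for amino acid synthesis, amino acid uptake and tRNA charging, together with its partners and feedback inhibitors. Serine synthesis, from the glycolytic intermediate 3-phosphoglycerate, and the mitochondrial folate cycle that takes one-carbon units from serine are among its best known targets in tumor cells, and FGF21 and GDF15 are hormones that liver and other tissues secrete under this response.

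Deposited values were normalized counts, meaning estimated reads per gene divided by the authors' normalization factors, and they summed to 23512975 to 26901953 per library. Per-library values are given below in the order of the replicate numbers above. A change is a difference of log2(normalized count + 1) between genotype means, tested by limma across all 12693 genes, and a gene is said to rise or fall at a Benjamini-Hochberg adjusted p under 0.05. Acly read 5461 to 6435 normalized counts in WT and 5542 to 5762 in ACSS2 KO, against 965 to 1084 in ACLY KO and 931 to 956 in DKO1. Acss2 read 224 to 252 in WT and 127 to 135 in ACSS2 KO, but 660 to 787 in ACLY KO and 455 to 578 in DKO1. A guide can disrupt the protein without lowering its RNA, so the Acss2 level does not check the DKO1 label. Defining genes of mature hepatocytes were low: of 8 hepatocyte markers 7 had a value and 3 a mean of at least 10, with Apoa1 and Serpina1a at a mean under 1 in every genotype, and the markers had a summed level of 207 to 241 in WT, 88.0 to 103 in ACLY KO, 229 to 251 in ACSS2 KO and 63.7 to 99.7 in DKO1, while 4 epithelial markers summed to 25850 or more in every library. Nearly all of that sum was the keratins Krt8 and Krt18. Of the others Epcam was at 1.63 to 23.0, and Cdh1, E-cadherin, fell from a mean of 547 in WT to 191 in ACSS2 KO, 65.2 in DKO1 and 58.7 in ACLY KO, with changes of -1.52, -3.05 and -3.21 (adjusted p = 8.4e-07, 4.7e-10 and 1.5e-10). The 6 fibroblast or stellate cell markers summed to 608 to 716 in WT, 2915 to 3283 in ACLY KO, 1424 to 1467 in ACSS2 KO and 1164 to 1425 in DKO1, the 4 endothelial markers to at most 90.6, with Stab2 at 2.05 or less in every library, and the 6 immune markers to at most 131, with Adgre1, Clec4f and Cd3e at a mean under 1 in every genotype. Hepatocyte sums were alike in WT and ACSS2 KO, but Hnf4a fell from a mean of 172 to 39.8 and Alb rose from 31.4 to 134. The changes were -2.10 and 2.06 (adjusted p = 3.9e-05 and 1.4e-05). Hnf4a also fell in ACLY KO and DKO1, to means of 28.7 and 22.4. Its changes there were -2.59 and -2.90 (adjusted p = 8e-07 and 5.5e-07). The 4 cholangiocyte markers summed to 35790 to 48416 in WT and 30244 to 32239 in ACLY KO. In ACSS2 KO they summed to 40058 to 43243 and in DKO1 to 44272 to 70617. Of these genes only Spp1 rose in DKO1 against WT, by 1.42 (adjusted p = 8.8e-07). Krt7, Krt19 and Sox9 fell there, with changes of -0.70, -1.17 and -0.60 (adjusted p = 0.00074, 0.00031 and 0.0011). The 4 fetal liver and tumor markers summed to 39.0 to 108 in WT, 143 to 155 in ACLY KO, 63.2 to 83.2 in ACSS2 KO and 182 to 416 in DKO1. The part of these markers in the results below was not tested.

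Some libraries leaned towards short or long transcripts. Across 12614 genes with a transcript length, the Spearman correlation of the deviation from the genotype mean with length was -0.709 in DKO1 replicate 4, -0.616 in WT replicate 2, -0.599 in ACLY KO replicate 4 and -0.547 in ACSS2 KO replicate 1, so each genotype held 1 library that leaned to short transcripts, and it was between 0.0471 and 0.672 in the other libraries. Over the 38 genes it was -0.722, -0.621, -0.859 and -0.531 in these 4 libraries. Results that moved with any library are given with and without it, and the counts also without all 4, a setting chosen after the data were seen.

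The module was highest in cells lacking ACSS2 alone. In ACSS2 KO against WT, 28 of 38 genes rose, 0 fell and 10 did not pass, where 15.0% of all genes tested rose and 11.0% fell. The 38 genes were chosen with earlier results of these data known, so their contrast with all genes is not an independent result. In such bulk samples fewer expressing cells and less RNA per cell cannot be told apart. The median log2 change over the 38 genes was 0.80, beside 0.0009 over all genes. In 30 of 38 genes every ACSS2 KO library lay above every WT library, as in 23.0% of all genes, and in 0 genes below, as in 19.8%. Median differences from the WT mean over the 38 genes were 0.72, 0.64 and 0.94 in the ACSS2 KO libraries and -0.02 to 0.05 in the WT libraries. With DKO1 replicate 4 and WT replicate 2 both left out, 33 rose and 1 fell, and without all 4 leaning libraries 34 rose and 0 fell.

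ACLY KO cells showed a smaller and mixed change. Against WT, 18 genes rose and 4 fell, beside 23.8% and 24.7% of all genes, with a median of 0.23 over the 38 genes and of -0.01 over all genes. Without DKO1 replicate 4 and WT replicate 2 the counts were 19 and 8, as they were without all 4 leaning libraries, which moved the share of calls that were higher from 81.8% to 70.4%. DKO1 cells against WT gave 18 genes that rose and 8 that fell, beside 27.9% and 28.1% of all genes, with a median of 0.31, and 22 and 11 without all 4 leaning libraries.

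The change that went with ACSS2 loss, seen in 1 clone per background, differed between WT and ACLY KO cells. In ACLY-deficient cells, DKO1 against ACLY KO, 8 genes rose and 7 fell, beside 14.3% and 13.6% of all genes, and the median was 0.07. Correction for transcript length turned these counts to 7 and 11, so the share of calls that were higher moved from 53.3% to 38.9%, and without all 4 leaning libraries they were 8 and 11, a share of 42.1%. The test of the difference itself, the change from ACLY KO to DKO1 minus that from WT to ACSS2 KO, gave 23 genes below zero and 0 above at the threshold, beside 15.1% and 12.0% of all genes. It was negative in 33 of 38 genes with a median of -0.64, beside -0.01 over all genes, and with DKO1 replicate 4 and WT replicate 2 left out 30 genes were lower and 0 higher. Without all 4 leaning libraries 32 were lower and 0 higher. Set against ACSS2 KO, DKO1 was lower in 20 genes and higher in 3, beside 27.8% and 25.9% of all genes. The interaction and DKO1 against ACSS2 KO share the ACSS2 KO libraries with ACSS2 KO against WT and are not separate evidence.

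**Figure D1:**
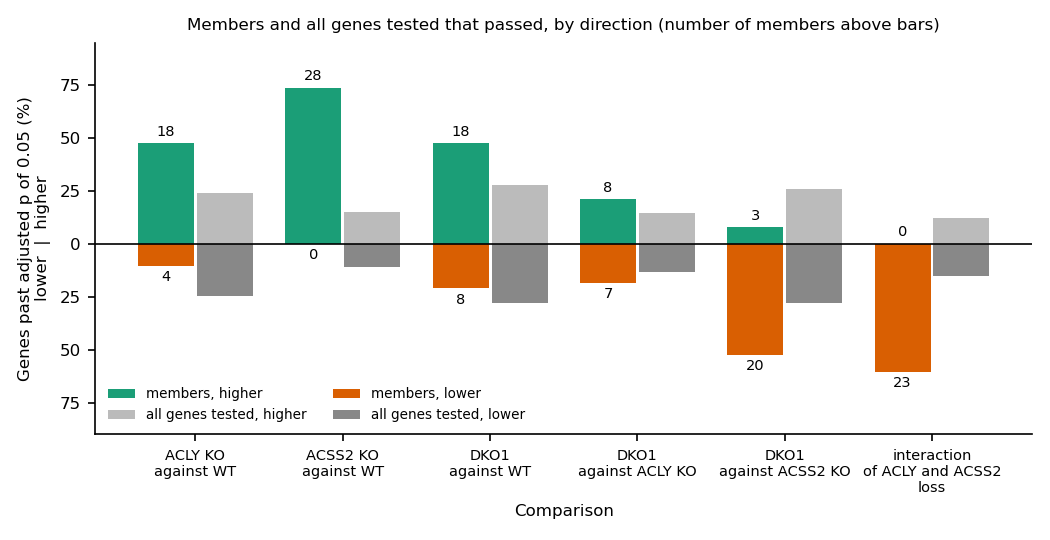
Share of the 38 genes (colored) and of all 12693 genes tested (grey) that rose (above zero) or fell (below zero) at an adjusted p under 0.05, in percent, for 6 comparisons, with the number of the 38 genes at each colored bar. In ACSS2 KO against WT 28 genes rose and 0 fell, and in the interaction 0 were higher and 23 lower.

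By genotype mean, ACSS2 KO held the highest level for 27 of the 38 genes, DKO1 for 8, ACLY KO for 3 and WT for 0, where these genotypes were highest for 25.8%, 32.6%, 19.2% and 22.4% of all genes. WT was lowest for 16 genes, DKO1 for 11, ACLY KO for 9 and ACSS2 KO for 2, beside 22.3%, 29.3%, 20.4% and 28% of all genes. Under the stricter limits of an absolute log2 change over 1.5 and an adjusted p under 0.01, 8 genes rose and 0 fell in ACSS2 KO against WT, beside 1.65% and 0.772% of all genes, and 7 were lower and 0 higher in the interaction, beside 3.03% and 1.58%.

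**Figure D2:**
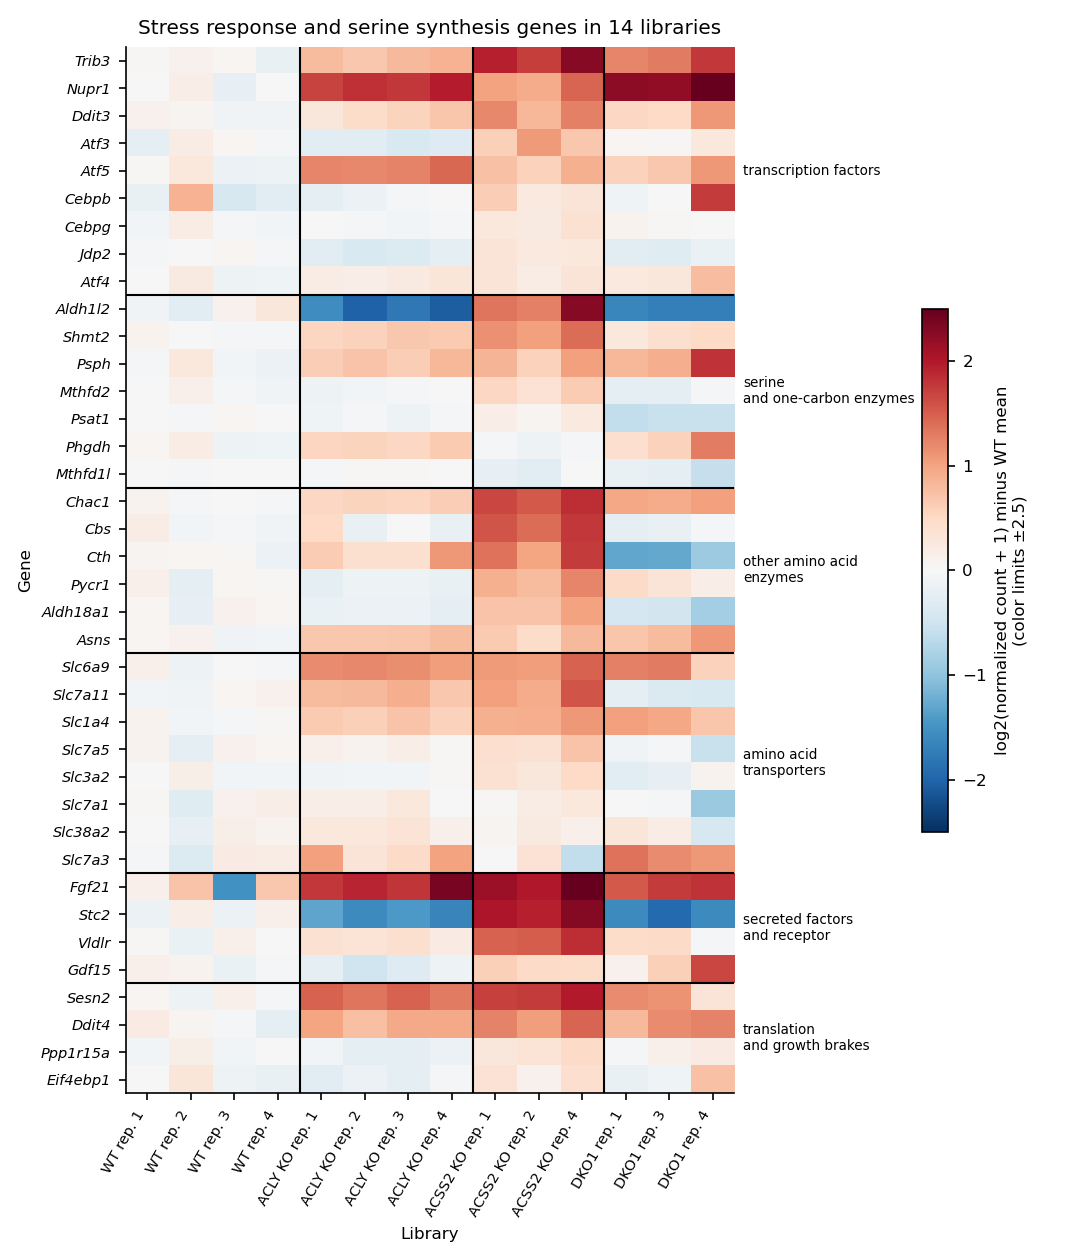
Difference of log2(normalized count + 1) from the WT mean for the 38 genes (rows, by role) in 14 libraries (columns, by genotype), with red above and blue below the WT mean and colors limited to ±2.5. The ACSS2 KO columns are red in nearly all rows, whereas Aldh1l2 and Stc2 are blue in ACLY KO and DKO1 and Cth is blue in DKO1.

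Promoter sequence was read for 33 of the 38 genes with a RefSeq entry on GRCm38.p6, from 250 bases before to 50 after each start. TGATGCAA, a form of the C/EBP-ATF response element, was searched on both strands, as was TGATGNAA, which contains the former, and the palindromic cyclic AMP response element TGACGTCA. TGATGCAA was present in 9 of 33 genes (27.27%), beside 0.75% of the 9980 tested genes with a promoter and 1.03% of all 27025 genes. TGATGNAA was present in 11 of 33 (33.33%), beside 2.67% of tested genes. TGACGTCA was present in 1 of 33 (3.03%), Ppp1r15a, beside 3.59% of tested genes. The 38 genes were picked as genes of this response, whose factor ATF4 binds such elements. Their share above that of all genes is therefore not an independent result. A match is a run of letters and not a measured binding site. The 9 genes with TGATGCAA were Atf3, Chac1, Slc7a11, Fgf21, Nupr1, Slc1a4, Pycr1, Jdp2 and Vldlr. All 9 rose in ACSS2 KO against WT, and DKO1 against ACSS2 KO was lower in 6 and higher in 1, while the interaction was lower in 6. Of all 38 genes 28, 20, 3 and 23 did so, and of all genes tested 15.0%, 27.8%, 25.9% and 15.1%. Slc1a4 holds the element with its first base at -4 from the start, and its window is not shown. Windows around the element are shown for the other 8 genes, which likewise rose in ACSS2 KO. Each is given 5′ to 3′ on the strand of its gene, with the element in capitals, and TTGCATCA is the element on the opposite strand.
Chac1, chr2:119351033-119351072, plus strand, first element base at -193 from the start: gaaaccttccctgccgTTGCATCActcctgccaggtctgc
Fgf21, chr7:45615606-45615645, minus strand, at -139: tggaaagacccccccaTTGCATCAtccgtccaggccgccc
Vldlr, chr19:27216804-27216843, plus strand, at -200: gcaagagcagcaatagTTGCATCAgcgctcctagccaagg
Atf3, chr1:191183420-191183459, minus strand, at -110: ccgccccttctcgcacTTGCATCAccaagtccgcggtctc
Nupr1, chr7:126625557-126625596, minus strand, at -110: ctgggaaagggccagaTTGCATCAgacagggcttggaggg
Pycr1, chr11:120643828-120643867, minus strand, at -103: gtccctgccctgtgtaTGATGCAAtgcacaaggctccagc
Jdp2, chr12:85599367-85599406, plus strand, at -33: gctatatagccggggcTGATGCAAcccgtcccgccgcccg
Slc7a11, chr3:50443643-50443689, minus strand, with 2 elements whose first bases are 19 bases apart, at -66 and -47: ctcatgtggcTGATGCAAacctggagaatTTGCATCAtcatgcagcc

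Among the 9 genes grouped as transcription factors, which include the pseudokinase Trib3, 7 rose and 0 fell in ACSS2 KO against WT. In ACLY KO 4 rose and 2 fell, and 3 were lower in the interaction. Of all genes, 15.0% rose and 11.0% fell in ACSS2 KO, 23.8% and 24.7% in ACLY KO, and 15.1% were lower in the interaction. The share of the 9 that fell in ACLY KO, 22.2%, was near that of all genes. Atf4 (Ensembl ENSMUSG00000042406, chr15:80255184-80257541, plus strand of GRCm38) encodes the central factor of the response. The level of Atf4 was 13980, 16207, 12694 and 12833 normalized counts in WT, 15719, 15597, 16123 and 17198 in ACLY KO, 17273, 15754 and 17359 in ACSS2 KO and 16382, 16963 and 23722 in DKO1. The ACSS2 KO libraries overlapped with WT replicate 2, and DKO1 replicate 4 stood highest. Atf4 rose in DKO1 against WT, by 0.44 (SE 0.12, adjusted p = 0.0084), a change of 0.27 (adjusted p = 0.02) without DKO1 replicate 4 and one that did not pass (adjusted p = 0.065) when only DKO1 and WT were fitted. In ACSS2 KO against WT its change was 0.28 (SE 0.12, adjusted p = 0.12), with a 95% interval of 0.01 to 0.54.

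Ddit3, which encodes CHOP, the C/EBP homolog induced by ATF4, read 236, 230.4, 206 and 205 normalized counts in WT, 265, 301, 322 and 354 in ACLY KO, 507, 390.5 and 525 in ACSS2 KO and 314, 311 and 465 in DKO1. All knockout libraries lay above all WT libraries. The change was 1.10 (SE 0.15, adjusted p = 0.00016) in ACSS2 KO and 0.50 (SE 0.14, adjusted p = 0.011) in ACLY KO, and 0.70 (SE 0.15, adjusted p = 0.0017) in DKO1, each against WT. The last did not pass after correction for length with the replicate number as a block (0.28, adjusted p = 0.059). ACSS2 loss in ACLY KO cells went with a change of 0.21 (SE 0.15, adjusted p = 0.34), which did not pass, and the interaction was -0.89 (SE 0.22, adjusted p = 0.0082). In 68 bases, 4.0% of its exons, Ddit3 overlaps the Mars gene on the opposite strand, and how strand entered the counting was not given in the sources used here.

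Trib3, a pseudokinase that holds ATF4 back as a feedback inhibitor (chr2:152337422-152344032, minus strand), read 721, 769.7, 731 and 625 normalized counts in WT, 1222, 1140.1, 1244 and 1289 in ACLY KO, 2731, 2369 and 3421 in ACSS2 KO and 1665, 1746 and 2435 in DKO1. The 4 genotypes did not overlap except that DKO1 replicate 4 passed the lowest ACSS2 KO library, and WT was the lowest genotype. Against WT, Trib3 rose by 1.98 (SE 0.14, adjusted p = 6.2e-07) in ACSS2 KO, a fold of 3.95, by 1.43 (SE 0.14, adjusted p = 2.1e-06) in DKO1 and by 0.78 (SE 0.13, adjusted p = 0.00023) in ACLY KO. It also rose in DKO1 against ACLY KO, by 0.65 (SE 0.14, adjusted p = 0.0041), and its interaction of -1.33 (SE 0.20, adjusted p = 0.00031) was below zero. From ACSS2 KO to DKO1 it changed by -0.55 (SE 0.15, adjusted p = 0.0078) in the fit of all genotypes and did not pass (adjusted p = 0.075) when only these groups were fitted.

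Atf3, a stress-induced factor that represses many targets, moved in opposite directions with the loss of each enzyme. Its values were 596, 792, 722 and 684 normalized counts in WT, 571, 569, 532 and 552 in ACLY KO, 1057, 1456 and 1114 in ACSS2 KO and 716, 712 and 835 in DKO1, with the ACSS2 KO libraries highest and the ACLY KO libraries all below WT. The change was 0.78 (SE 0.12, adjusted p = 0.00028) in ACSS2 KO and -0.32 (SE 0.11, adjusted p = 0.026) in ACLY KO, and the latter did not pass without WT replicate 2 (-0.26, adjusted p = 0.074) or without any of 3 other libraries (WT replicate 3, ACLY KO replicate 3 or 4), nor with equal library totals (-0.21, adjusted p = 0.098). DKO1 exceeded ACLY KO by 0.44 (adjusted p = 0.014).

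Atf5, a paralog of ATF4 linked to the mitochondrial stress response, was highest in ACLY KO. Atf5 stood at 1383, 1626, 1229.5 and 1245 normalized counts in WT, 3160.1, 3144, 3236 and 3667 in ACLY KO, 2271, 2032 and 2512 in ACSS2 KO and 2036, 2168 and 2882 in DKO1. Every knockout library lay above every WT library. Against WT it rose by 1.27 (SE 0.12, adjusted p = 1.6e-06) in ACLY KO, 0.73 (SE 0.13, adjusted p = 0.001) in ACSS2 KO and 0.78 (SE 0.13, adjusted p = 0.00022) in DKO1. ACSS2 loss went with a rise in WT cells and a change of -0.50 (SE 0.13, adjusted p = 0.012) in ACLY KO cells, and the interaction was -1.23 (SE 0.18, adjusted p = 0.00031).

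Nupr1, a small chromatin-associated stress protein, was highest in DKO1. Levels were 189.5, 212, 164 and 190.3 normalized counts in WT, 613, 666, 639 and 741 in ACLY KO, 379, 359.6 and 519 in ACSS2 KO and 889.8, 877 and 1290.5 in DKO1, with no overlap between any pair of genotypes. The changes against WT were 1.81 (SE 0.14, adjusted p = 3.1e-07) in ACLY KO, 1.13 (SE 0.16, adjusted p = 0.00014) in ACSS2 KO and 2.41 (SE 0.16, adjusted p = 4.9e-08) in DKO1, the last a fold of 5.31. The interaction of -0.54 (SE 0.22, adjusted p = 0.09) did not pass, and the rise from ACLY KO to DKO1 of 0.60 (adjusted p = 0.012) did not pass after correction for transcript length (0.29, adjusted p = 0.1).

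Of the other transcription factors, Jdp2, a repressor of the AP-1 family, rose by 0.28 (adjusted p = 0.003) in ACSS2 KO and fell by 0.30 on the log2 scale (adjusted p = 0.00039) in ACLY KO and by 0.25 (adjusted p = 0.0026) in DKO1. Cebpg, a dimer partner of ATF4, rose by 0.29 (adjusted p = 0.0064) in ACSS2 KO, which did not pass after correction for length (0.26, adjusted p = 0.06). It ranged over all libraries only from 2560 to 3504. It was lower in DKO1 than in ACSS2 KO, at -0.25 (adjusted p = 0.011), but did not pass after correction for length (-0.07, adjusted p = 0.57, and -0.01, adjusted p = 0.93, with the replicate block), without ACSS2 KO replicate 4 (-0.20, adjusted p = 0.055) or when only these groups were fitted (adjusted p = 0.066). Cebpb, whose protein also pairs with ATF4, passed in no comparison: it read 307 to 353 in 3 WT libraries and 744 in WT replicate 2, and 373, 403 and 1368 in DKO1, and its highest library in each genotype was the one that leaned to short transcripts. It shares 20.7% of its exon bases with Tmem189 on the opposite strand.

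**Figure D3:**
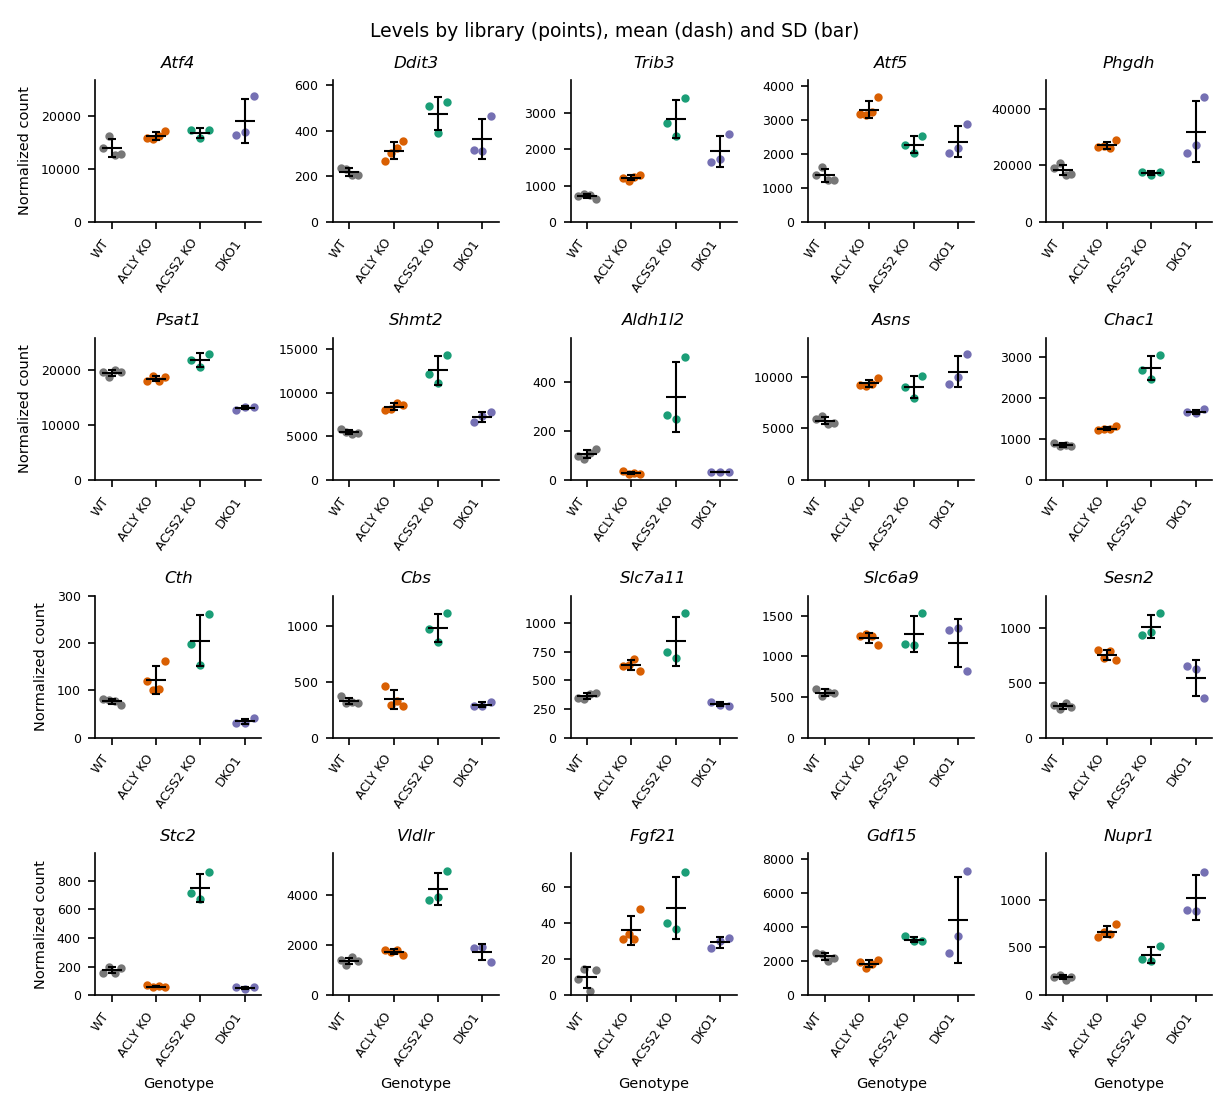
Normalized counts of 20 of the genes in each library (points) by genotype, with the genotype mean (dash) and SD (bar), over 4 libraries for WT and for ACLY KO and 3 for ACSS2 KO and for DKO1. Trib3, Chac1, Cbs, Stc2 and Vldlr are highest in ACSS2 KO, Nupr1 is highest in DKO1 and Atf5 in ACLY KO.

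Of the 7 serine and one-carbon enzymes, 4 rose and 0 fell in ACSS2 KO against WT and 3 rose and 1 fell in ACLY KO. In DKO1 3 rose and 3 fell, and 4 were lower in the interaction. Of all genes, 15.0% rose and 11.0% fell in ACSS2 KO, 23.8% and 24.7% in ACLY KO, and 15.1% were lower in the interaction. In DKO1 against WT, 27.9% of all genes rose and 28.1% fell. These are abundant transcripts: as TPM, a level per transcript length computed here from the normalized counts, the WT mean was 893 for Phgdh and 691 for Psat1, beside 744 for Atf4, 223 for Shmt2, 226 for Mthfd2 and 86.3 for Psph. The mitochondrial enzyme Aldh1l2 was at 1.62 on the same scale.

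The 3 enzymes of serine synthesis itself each had their own order of genotypes. Phgdh, phosphoglycerate dehydrogenase, takes the first step (chr3:98313170-98339990, minus strand). The libraries held 18886, 20787, 16637 and 17002 normalized counts in WT, 26324, 26678, 26179 and 28901 in ACLY KO, 17643, 16667 and 17668 in ACSS2 KO and 24294, 27240 and 44184 in DKO1. All ACLY-deficient libraries lay above all libraries with ACLY. The rise was 0.56 (SE 0.15, adjusted p = 0.0063) in ACLY KO and 0.75 (SE 0.16, adjusted p = 0.0013) in DKO1, the latter 0.49 (adjusted p = 0.00029) without DKO1 replicate 4, while ACSS2 KO differed from WT by -0.08 (SE 0.16, adjusted p = 0.79), with an interval of -0.42 to 0.27. An annotated pseudogene of Phgdh exists in the mouse genome, and how reads shared with it were counted was not given in the sources used here.

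Psat1, phosphoserine aminotransferase, takes the second step and fell in the double knockout. Its values were 19521, 18699, 19999 and 19567 normalized counts in WT, 17930, 18821, 17923 and 18703 in ACLY KO, 21737, 20449 and 22884 in ACSS2 KO and 12743, 13169 and 13261 in DKO1. The DKO1 libraries were below all others. The change was -0.57 (SE 0.06, adjusted p = 2.3e-06) in DKO1 against WT and -0.49 (SE 0.06, adjusted p = 4.3e-05) against ACLY KO, whereas those of ACSS2 KO (0.16, adjusted p = 0.061) and ACLY KO (-0.08, adjusted p = 0.21) against WT did not pass, and the interaction was -0.65 (SE 0.08, adjusted p = 7.1e-05).

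Psph, phosphoserine phosphatase, completes the pathway. It read 1579.8, 1935, 1530.2 and 1455 normalized counts in WT, 2465, 2632, 2489.6 and 2860 in ACLY KO, 2904, 2414 and 3283 in ACSS2 KO and 2880.5, 3048 and 5649 in DKO1. Every knockout library lay above every WT library, and DKO1 replicate 4 stood far above the others. Psph rose against WT by 0.69 (SE 0.18, adjusted p = 0.0068) in ACLY KO, 0.82 (SE 0.20, adjusted p = 0.0079) in ACSS2 KO and 1.19 (SE 0.20, adjusted p = 0.00021) in DKO1, and its interaction of -0.32 (SE 0.28, adjusted p = 0.42) did not pass. Against WT, DKO1 thus had more RNA for the first and last enzymes of serine synthesis and less RNA for the middle one.

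In mitochondria, serine hydroxymethyltransferase (Shmt2, chr10:127517123-127522444, minus strand) splits serine to glycine and a one-carbon unit on folate. The level of Shmt2 was 5830, 5463, 5293 and 5401 normalized counts in WT, 8004, 8166, 8820.3 and 8641 in ACLY KO, 12135, 11169 and 14373 in ACSS2 KO and 6611, 7370.5 and 7747 in DKO1. The genotypes followed the order WT, DKO1, ACLY KO, ACSS2 KO with no overlap between neighbors. Shmt2 rose by 1.18 (SE 0.09, adjusted p = 7.6e-07) in ACSS2 KO, 0.61 (SE 0.08, adjusted p = 2.9e-05) in ACLY KO and 0.40 (SE 0.09, adjusted p = 0.0017) in DKO1. The change from ACLY KO to DKO1 was -0.22 (SE 0.09, adjusted p = 0.08), which did not pass, and the interaction was -1.40 (SE 0.12, adjusted p = 3.4e-06).

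Mthfd2, the mitochondrial methylenetetrahydrofolate dehydrogenase, rose in ACSS2 KO. Its values were 5027, 5556, 5026 and 4803 normalized counts in WT, 4690.4, 4868, 4912 and 5038 in ACLY KO, 7258, 6561 and 7947 in ACSS2 KO and 4296, 4381 and 4914 in DKO1, with ACSS2 KO above all other libraries. It rose in ACSS2 KO, by 0.51 (SE 0.08, adjusted p = 0.00033). The differences of ACLY KO (-0.06, adjusted p = 0.5) and of DKO1 (-0.17, adjusted p = 0.074) from WT did not pass. The interaction was -0.61 (SE 0.11, adjusted p = 0.0011).

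Aldh1l2, which oxidizes 10-formyltetrahydrofolate in mitochondria and yields NADPH (chr10:83487450-83534140, minus strand), showed opposite changes. Aldh1l2 stood at 96.4, 84.7, 111 and 125 normalized counts in WT, 34.5, 24.5, 29.2 and 24.1 in ACLY KO, 264, 247 and 502 in ACSS2 KO and 32.5, 30.9 and 31.1 in DKO1, and all ACLY-deficient libraries were below WT while ACSS2 KO was above. It rose by 1.62 (SE 0.23, adjusted p = 0.00016) in ACSS2 KO and changed by -1.86 (SE 0.21, adjusted p = 8.1e-06) in ACLY KO and -1.68 (SE 0.23, adjusted p = 3.5e-05) in DKO1. Between DKO1 and ACSS2 KO the change was -3.30 (SE 0.24, adjusted p = 1.3e-07). It shares 14.1% of its exon bases with D10Wsu102e on the opposite strand. Mthfd1l, the mitochondrial formate-producing synthetase, ranged from 1341 to 2050 and was lower in DKO1, at -0.34 (adjusted p = 0.0062) against WT and -0.34 (adjusted p = 0.012) against ACLY KO. Without DKO1 replicate 4 these differences were -0.21 (adjusted p = 0.012) and -0.22 (adjusted p = 0.021). The first did not pass with equal library totals (-0.27, adjusted p = 0.069), nor the second when only these groups were fitted (adjusted p = 0.067).

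All 6 of the other amino acid enzymes rose in ACSS2 KO against WT, beside 15.0% of all genes. All 6 were lower in the interaction, beside 15.1%. Asparagine synthetase (Asns) read 5928, 6165, 5418 and 5456 normalized counts in WT, 9167, 9132, 9257 and 9863 in ACLY KO, 9018, 7888 and 10075 in ACSS2 KO and 9292, 9957 and 12169 in DKO1. Every knockout library was above every WT library. The rise against WT was 0.71 (SE 0.09, adjusted p = 3.2e-05) in ACLY KO, 0.64 (SE 0.10, adjusted p = 0.00039) in ACSS2 KO and 0.86 (SE 0.10, adjusted p = 1e-05) in DKO1. Its interaction was -0.49 (SE 0.14, adjusted p = 0.022) and did not pass without ACSS2 KO replicate 4 (-0.40, adjusted p = 0.067). DKO1 differed from ACLY KO by 0.15 (adjusted p = 0.28) and from ACSS2 KO by 0.22 (adjusted p = 0.1), and neither passed.

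Chac1 degrades glutathione and is one of the most responsive targets of ATF4 and CHOP (chr2:119351229-119354381, plus strand). The libraries held 904, 824, 849 and 819 normalized counts in WT, 1222, 1254, 1235 and 1307 in ACLY KO, 2691, 2463 and 3047 in ACSS2 KO and 1654, 1626 and 1723 in DKO1. The order WT, ACLY KO, DKO1, ACSS2 KO held in every library. Chac1 rose by 1.68 (SE 0.07, adjusted p = 1.3e-08) in ACSS2 KO, a fold of 3.21, by 0.56 (SE 0.07, adjusted p = 1.2e-05) in ACLY KO and by 0.97 (SE 0.07, adjusted p = 1.5e-07) in DKO1. The rise from ACLY KO to DKO1 was 0.41 (SE 0.07, adjusted p = 0.00099), or 0.26 (adjusted p = 0.071) after correction for length, and the interaction was -1.27 (SE 0.10, adjusted p = 1.7e-06).

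Of the transsulfuration enzymes, Cth, cystathionine gamma-lyase, gives cysteine and had the largest interaction of the 38 genes (chr3:157894248-157925077, minus strand). It read 80.9, 78.9, 78.3 and 69.3 normalized counts in WT, 119.7, 101, 102 and 163 in ACLY KO, 199, 154 and 261 in ACSS2 KO and 30.6, 31.1 and 40.5 in DKO1. The DKO1 libraries were all below WT, and the ACLY KO and ACSS2 KO libraries were all above it. Cth rose by 0.63 (SE 0.18, adjusted p = 0.011) in ACLY KO and 1.37 (SE 0.20, adjusted p = 2e-04) in ACSS2 KO and changed by -1.16 (SE 0.20, adjusted p = 0.00024) in DKO1 against WT and -1.79 (SE 0.20, adjusted p = 2.7e-05) against ACLY KO, a fold of 0.289. The interaction was -3.16 (SE 0.28, adjusted p = 3.7e-06). Cbs, cystathionine beta-synthase, takes the step before it and read 369.5, 309.5, 321 and 307 normalized counts in WT, 461, 287, 329 and 285 in ACLY KO, 969, 858 and 1112 in ACSS2 KO and 279, 285 and 319.5 in DKO1. It rose in ACSS2 KO, by 1.58 (SE 0.15, adjusted p = 8.4e-06). The changes of ACLY KO (0.03, adjusted p = 0.87) and DKO1 (-0.15, adjusted p = 0.43) against WT did not pass, and the interaction was -1.76 (SE 0.22, adjusted p = 6.4e-05).

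The proline enzymes Aldh18a1 and Pycr1 followed. Aldh18a1 read 8420 to 10338 in ACSS2 KO, 4490 to 5520 in WT, 4359 to 4674 in ACLY KO and 2841 to 3829 in DKO1. It rose by 0.81 (adjusted p = 0.00016) in ACSS2 KO and was lower in DKO1, at -0.58 (adjusted p = 0.00073) against WT and -0.41 (adjusted p = 0.017) against ACLY KO, the latter -0.27 (adjusted p = 0.044) without DKO1 replicate 4 and not past the threshold (adjusted p = 0.053) when only these groups were fitted. Pycr1 read 475 to 639 in ACSS2 KO, 234 to 300 in WT, 229 to 251 in ACLY KO and 308 to 380.0 in DKO1, and rose by 0.97 (adjusted p = 4.2e-05) in ACSS2 KO and by 0.50 (adjusted p = 0.0061) from ACLY KO to DKO1. Its change of 0.32 (adjusted p = 0.028) in DKO1 against WT did not pass without DKO1 replicate 1 (0.25, adjusted p = 0.11), DKO1 replicate 3 or WT replicate 2, with the replicate block (adjusted p = 0.072), with quantile normalization (0.21, adjusted p = 0.16) or when only these groups were fitted (adjusted p = 0.075), nor did its interaction of -0.48 (adjusted p = 0.045) when WT replicate 2, 3 or 4, any ACLY KO library, ACSS2 KO replicate 1 or 4 or DKO1 replicate 3 or 4 was left out (adjusted p = 0.055 to 0.12).

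Of 8 amino acid transporters, 5 rose and 0 fell in ACSS2 KO, 4 rose in ACLY KO, and 5 were lower in the interaction. Of all genes, 15.0% rose and 11.0% fell in ACSS2 KO, 23.8% rose in ACLY KO and 15.1% were lower in the interaction. Slc7a11 encodes xCT, which imports cystine in exchange for glutamate (chr3:49892526-50443614, minus strand). The level of Slc7a11 was 347, 340.2, 377 and 391 normalized counts in WT, 628, 635, 687 and 579 in ACLY KO, 745, 693 and 1084 in ACSS2 KO and 312, 282 and 278 in DKO1. Both single knockouts lay above WT and DKO1 lay below it. The rise was 1.18 (SE 0.13, adjusted p = 2.4e-05) in ACSS2 KO and 0.80 (SE 0.12, adjusted p = 1e-04) in ACLY KO. From ACLY KO to DKO1 the change was -1.12 (SE 0.13, adjusted p = 4.3e-05) and the interaction was -2.30 (SE 0.18, adjusted p = 1.7e-06). The level in DKO1 against WT, -0.32 (SE 0.13, adjusted p = 0.049), was at the threshold and did not pass after correction for length (-0.09, adjusted p = 0.66) or when WT replicate 1, 3 or 4, any ACLY KO library, ACSS2 KO replicate 1 or DKO1 replicate 3 or 4 was left out (adjusted p = 0.053 to 0.11). Transcripts for cystine import (Slc7a11) and for cysteine synthesis (Cth) were thus both lower in DKO1 than in either single knockout.

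Slc3a2, the heavy chain that carries xCT and LAT1 to the membrane, read 10403, 11537, 9867 and 9876 normalized counts in WT, 9814, 9867, 9962 and 10598 in ACLY KO, 13577, 12691 and 14636 in ACSS2 KO and 8589, 9052 and 11028 in DKO1, highest in ACSS2 KO. Its partner Slc7a5, LAT1, which imports large neutral amino acids, read 12658, 10180, 12931 and 12350 normalized counts in WT, 13090, 12784, 13442 and 12177 in ACLY KO, 16112, 15632 and 19690 in ACSS2 KO and 11266, 11567 and 8088 in DKO1. In ACSS2 KO against WT, Slc3a2 rose by 0.39 (SE 0.09, adjusted p = 0.0063) and Slc7a5 by 0.51 (SE 0.13, adjusted p = 0.01), the latter 0.41 (adjusted p = 0.066) without ACSS2 KO replicate 4. Neither passed in ACLY KO or DKO1 against WT, and the interactions were -0.47 (adjusted p = 0.016) and -0.85 (adjusted p = 0.0039).

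The glycine transporter Slc6a9 read 603, 509, 559.7 and 545 normalized counts in WT, 1253, 1276, 1247 and 1145 in ACLY KO, 1155, 1138 and 1540.5 in ACSS2 KO and 1326, 1354 and 823 in DKO1. All knockout libraries exceeded WT. Against WT it rose by 1.15 (SE 0.15, adjusted p = 2.3e-05) in ACLY KO, 1.19 (SE 0.16, adjusted p = 1e-04) in ACSS2 KO and 1.04 (SE 0.16, adjusted p = 9.8e-05) in DKO1, with an interaction of -1.30 (SE 0.22, adjusted p = 0.00082). Its exons share 27.8% of their bases with Ccdc24 on the opposite strand. Slc1a4, which carries serine and other small neutral amino acids, rose in the same manner, from 1114 to 1234 in WT to 1745 to 1911 in ACLY KO, 2160 to 2490 in ACSS2 KO and 1891 to 2385 in DKO1, with changes of 0.63 (adjusted p = 1.8e-05), 0.96 (adjusted p = 3.5e-06) and 0.90 (adjusted p = 1.4e-06) and an interaction of -0.70 (adjusted p = 0.00081). The further rise from ACLY KO to DKO1 of 0.26 (adjusted p = 0.032) did not pass when ACLY KO replicate 1, 2 or 4 or DKO1 replicate 1 or 3 was left out (0.20 to 0.27, adjusted p = 0.06 to 0.11), with the replicate number as a block (0.24, adjusted p = 0.08), with equal library totals (adjusted p = 0.17) or when only these groups were fitted (adjusted p = 0.11).

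Slc7a3, a cationic amino acid transporter, was scarce, and highest in DKO1. Its values were 16.1, 12.7, 19.1 and 18.8 normalized counts in WT, 34.5, 20.8, 23.3 and 34.2 in ACLY KO, 16.4, 21.5 and 10.5 in ACSS2 KO and 43.9, 38.8 and 36.1 in DKO1. DKO1 lay above all other libraries. It rose by 1.21 (SE 0.26, adjusted p = 0.0013) in DKO1 and by 0.71 (SE 0.24, adjusted p = 0.025) in ACLY KO against WT, the latter not without WT replicate 2 (0.59, adjusted p = 0.069), WT replicate 1 or ACLY KO replicate 1 or 4, nor with quantile normalization (0.52, adjusted p = 0.093). In ACSS2 KO its change was -0.08 (adjusted p = 0.86). The arginine and lysine transporter Slc7a1, from 5410 to 12368 over all libraries, and the glutamine and alanine transporter Slc38a2, from 9171 to 15395, passed in no comparison, and both were lowest in DKO1 replicate 4.

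Among the secreted factors and the lipoprotein receptor Vldlr, 3 of 4 rose in ACSS2 KO against WT, beside 15.0% of all genes. Fgf21, the fasting and stress hormone, was barely expressed. Fgf21 stood at 9.20, 14.5, 2.29 and 13.97 normalized counts in WT, 31.1, 34.0, 31.3 and 47.8 in ACLY KO, 40.3, 36.7 and 68.4 in ACSS2 KO and 26.2, 30.4 and 31.8 in DKO1, so each knockout library was above each WT library, and WT replicate 3 was near 0. It rose by 2.34 (SE 0.44, adjusted p = 0.0016) in ACSS2 KO, 1.96 (SE 0.41, adjusted p = 0.0014) in ACLY KO and 1.69 (SE 0.44, adjusted p = 0.0057) in DKO1. Without WT replicate 3 these changes were 1.84, 1.45 and 1.19 (adjusted p = 0.00038, 0.00043 and 0.0026). The interaction was -2.61 (SE 0.63, adjusted p = 0.008).

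Gdf15, a hormone that lowers appetite, was most variable in DKO1. The libraries held 2486, 2436, 2019 and 2211 normalized counts in WT, 1936, 1608, 1816 and 2078 in ACLY KO, 3458, 3183 and 3151 in ACSS2 KO and 2469.7, 3456 and 7267 in DKO1. The DKO1 libraries spread most, with replicate 4 highest and replicate 1 within the WT range. Gdf15 rose in DKO1, by 0.80 (SE 0.26, adjusted p = 0.019) against WT and 1.10 (SE 0.26, adjusted p = 0.007) against ACLY KO. Without DKO1 replicate 4 the rise was 0.36 against WT (adjusted p = 0.029) and 0.66 against ACLY KO (adjusted p = 0.0019), and when only the groups compared were fitted they did not pass (adjusted p = 0.093 and 0.064). In ACSS2 KO the change was 0.52 (SE 0.26, adjusted p = 0.17), which did not pass although all ACSS2 KO libraries lay above WT.

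Stc2, a secreted glycoprotein induced by ATF4 (chr11:31357307-31370074, minus strand), moved in opposite directions in the single knockouts. It read 158, 196, 157 and 192 normalized counts in WT, 69.4, 57.6, 63.7 and 55.4 in ACLY KO, 713, 675 and 859.8 in ACSS2 KO and 57.1, 44.7 and 57.5 in DKO1. ACSS2 KO was above WT, and ACLY KO and DKO1 were below WT, in every library. The change was 2.09 (SE 0.13, adjusted p = 2.6e-07) in ACSS2 KO, a fold of 4.25, -1.50 (SE 0.12, adjusted p = 4.6e-07) in ACLY KO and -1.71 (SE 0.13, adjusted p = 2.7e-07) in DKO1. From ACLY KO to DKO1 it was -0.21 (SE 0.13, adjusted p = 0.27), and the interaction was -2.30 (SE 0.19, adjusted p = 2.2e-06).

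Vldlr, the very low density lipoprotein receptor, is an ATF4 target in liver. The level of Vldlr was 1409, 1222, 1511 and 1384 normalized counts in WT, 1793, 1745, 1822 and 1598 in ACLY KO, 3813, 3913 and 4949.9 in ACSS2 KO and 1892, 1914 and 1346 in DKO1, with ACSS2 KO far above the rest. Its change was 1.61 (SE 0.13, adjusted p = 1.7e-06) in ACSS2 KO. In ACLY KO it was 0.33 (SE 0.12, adjusted p = 0.034), which did not pass when WT replicate 1, 2 or 4 or ACLY KO replicate 1, 2 or 3 was left out (0.28 to 0.35, adjusted p = 0.056 to 0.091), and in DKO1 it was 0.30 (adjusted p = 0.065). The interaction was -1.64 (SE 0.18, adjusted p = 2.8e-05).

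Of 4 brakes on translation and growth, 3 rose and 0 fell in ACSS2 KO, beside 15.0% and 11.0% of all genes. Sesn2, a leucine sensor that restrains mTORC1, read 296, 261, 311 and 279 normalized counts in WT, 798, 729, 793 and 704 in ACLY KO, 937, 967 and 1133 in ACSS2 KO and 648, 624 and 358 in DKO1. Every knockout library was above WT. It rose by 1.81 (SE 0.17, adjusted p = 5.6e-06) in ACSS2 KO, 1.40 (SE 0.15, adjusted p = 6.9e-06) in ACLY KO and 0.87 (SE 0.17, adjusted p = 0.00064) in DKO1, and its interaction was -2.34 (SE 0.24, adjusted p = 1.3e-05). Its fall from ACLY KO to DKO1, -0.52 (adjusted p = 0.034), was -0.25 (adjusted p = 0.06) without DKO1 replicate 4 and did not pass without ACLY KO replicate 1, 2 or 3, with equal library totals (adjusted p = 0.052) or when only these groups were fitted (adjusted p = 0.13).

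Ddit4, REDD1, another inhibitor of mTORC1, read 284, 257, 239.8 and 206 normalized counts in WT, 483, 414, 474 and 475 in ACLY KO, 583, 509 and 675 in ACSS2 KO and 431, 557 and 582 in DKO1. Again all knockout libraries exceeded WT. Against WT, Ddit4 rose by 1.25 (SE 0.13, adjusted p = 2e-05) in ACSS2 KO, 1.08 (SE 0.13, adjusted p = 1.8e-05) in DKO1 and 0.91 (SE 0.12, adjusted p = 4.5e-05) in ACLY KO, with an interaction of -1.08 (SE 0.19, adjusted p = 0.00099).

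Ppp1r15a, GADD34, directs the phosphatase that reverses eIF2 phosphorylation. Its values were 1204, 1400.3, 1208 and 1251 normalized counts in WT, 1205, 1085, 1070 and 1141 in ACLY KO, 1546, 1601 and 1769.7 in ACSS2 KO and 1223, 1374 and 1464 in DKO1. It rose by 0.37 (SE 0.08, adjusted p = 0.0044) in ACSS2 KO and passed in neither ACLY KO (-0.17, adjusted p = 0.085) nor DKO1 (0.10, adjusted p = 0.34) against WT. Its rise from ACLY KO to DKO1, 0.26 (adjusted p = 0.029), did not pass when ACLY KO replicate 2, 3 or 4 or DKO1 replicate 3 or 4 was left out (0.21 to 0.27, adjusted p = 0.051 to 0.08), and its fall from ACSS2 KO to DKO1, -0.28 (adjusted p = 0.017), did not without ACSS2 KO replicate 4 (-0.22, adjusted p = 0.081) or DKO1 replicate 1 (-0.21, adjusted p = 0.067). Neither passed when only the groups compared were fitted (adjusted p = 0.087 and 0.091). The translation repressor Eif4ebp1 passed in no comparison, over a range from 3376 to 6673 with DKO1 replicate 4 highest.

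**Figure D4:**
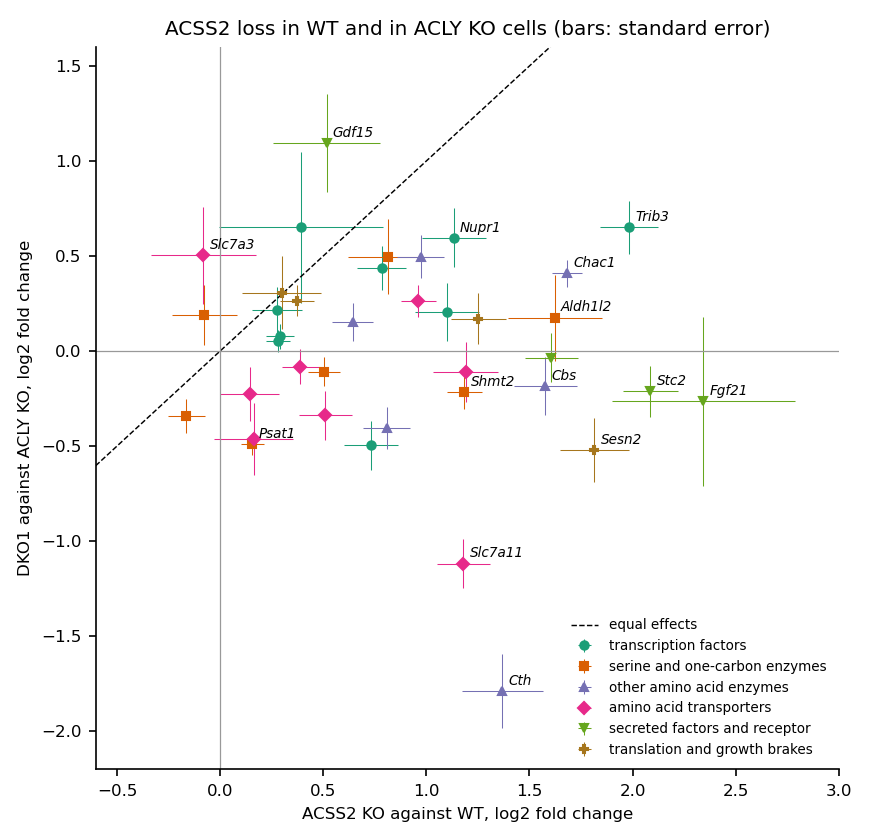
Log2 change with ACSS2 loss in WT cells (ACSS2 KO against WT, horizontal) and in ACLY KO cells (DKO1 against ACLY KO, vertical) for the 38 genes, with bars of 1 standard error, symbols by role and a dashed line of equal change. Most genes lie right of zero and below the dashed line, with Cth and Slc7a11 lowest and Gdf15 above the line.

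With calls at the threshold, the 28 genes that rose with ACSS2 loss in WT cells were split 3 ways in ACLY KO cells. In 7 of them (Trib3, Chac1, Nupr1, Atf3, Pycr1, Slc1a4 and Ppp1r15a) ACSS2 loss also went with a rise there. In 5 (Cth, Slc7a11, Atf5, Aldh18a1 and Sesn2) it went with a fall. The other 16, among them Shmt2, Cbs, Stc2, Vldlr, Aldh1l2, Fgf21, Ddit4 and Slc6a9, did not pass there, and for 13 of these 16 the interaction passed. The interaction subtracts the same rise by which the 28 genes were selected. The selection thus favors an interaction below zero, and this count is not separate evidence. Of all genes tested, 14.3% rose and 13.6% fell from ACLY KO to DKO1. In some alternative runs given above, the rises of Chac1, Nupr1, Slc1a4 and Ppp1r15a did not pass. Nor did the falls of Sesn2 and Aldh18a1.

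Lists of genes upstream of the module and of neighboring responses gave other counts, to be read against all genes tested, of which 15.0% rose and 11.0% fell in ACSS2 KO, 23.8% and 24.7% in ACLY KO and 27.9% and 28.1% in DKO1. Of 16 tested genes for eIF2 kinases, eIF2 and eIF2B, 0 rose and 3 fell in ACSS2 KO, 3 rose and 1 fell in ACLY KO, and 6 rose and 3 fell in DKO1 against WT. Oma1 and Dele1, which relay mitochondrial stress to the eIF2 kinase HRI, rose by 0.77 (SE 0.06, adjusted p = 3.5e-07) and 0.45 (SE 0.06, adjusted p = 3.1e-05) in ACLY KO and by 1.01 (SE 0.07, adjusted p = 6.2e-08) and 0.50 (SE 0.06, adjusted p = 2.2e-05) in DKO1, but did not pass in ACSS2 KO, at -0.01 (adjusted p = 0.92) and 0.07 (adjusted p = 0.48). Of 10 mitochondrial chaperones and proteases, 5 rose and 0 fell in ACLY KO, 6 rose and 1 fell in DKO1, and 1 rose and 1 fell in ACSS2 KO. Among them the chaperone Hspa9 changed by 0.52 (adjusted p = 2.7e-06), 0.34 (adjusted p = 0.00022) and 0.10 (adjusted p = 0.22), in that order, and the protease Lonp1 by 0.60 (adjusted p = 9.9e-06), 0.56 (adjusted p = 3.7e-05) and 0.27 (adjusted p = 0.017).

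Of 21 genes of the endoplasmic reticulum unfolded protein response, 3 rose and 1 fell in ACSS2 KO, 2 rose and 4 fell in ACLY KO, and 3 rose and 5 fell in DKO1 against WT, no larger a share rising than among all genes in any of the 3. Herpud1, a membrane protein of this response that ATF4 also induces, rose in all 3, by 0.94 (adjusted p = 1.4e-06), 0.69 (adjusted p = 2.4e-06) and 0.57 (adjusted p = 2.3e-05), with an interaction of -1.06 (adjusted p = 1e-05). The folding enzyme Pdia4 changed by -0.76 (adjusted p = 6.7e-08) in ACLY KO and -0.70 (adjusted p = 2.8e-07) in DKO1 and did not pass in ACSS2 KO (-0.03, adjusted p = 0.75). The 20 cytosolic aminoacyl-tRNA synthetases, many of them ATF4 targets, had 10 that rose and 1 that fell in ACSS2 KO, 12 and 2 in ACLY KO, and 9 and 2 in DKO1, and in the interaction 8 were lower and 1 higher. Rars, for arginine, rose by 0.49 (adjusted p = 2.8e-06) in ACLY KO and 0.36 (adjusted p = 8.3e-05) in DKO1, while Vars, for valine, changed by -0.41 (adjusted p = 3.7e-05) in DKO1 and -0.38 (adjusted p = 0.00029) from ACLY KO to DKO1.

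Of 14 tested folate and glycine enzymes outside the module, 2 rose and 6 fell in ACSS2 KO, 2 rose and 4 fell in ACLY KO, and 2 rose and 4 fell in DKO1. Cytosolic serine hydroxymethyltransferase (Shmt1) went the other way from its mitochondrial paralog Shmt2. It was at 152 ± 14.8 (SD, n = 4) in WT, 23.9 ± 6.66 (n = 4) in ACLY KO, 15.5 ± 5.81 (n = 3) in ACSS2 KO and 27.2 ± 3.70 (n = 3) in DKO1, and its changes were -2.66 (SE 0.24, adjusted p = 1.2e-06), -3.27 (SE 0.26, adjusted p = 1.7e-06) and -2.44 (SE 0.26, adjusted p = 4.8e-06) against WT, with an interaction of 3.49 (SE 0.37, adjusted p = 1.9e-05). The cytosolic folate enzyme Mthfd1 was lower in each, at -0.30 (adjusted p = 0.00085) on the log2 scale in ACSS2 KO, -0.47 (adjusted p = 7.1e-06) in DKO1 and -0.24 (adjusted p = 0.0012) in ACLY KO. Among 15 tested amino acid transporters outside the module, 4 rose and 3 fell in ACSS2 KO, 5 rose and 4 fell in ACLY KO, and 4 rose and 5 fell in DKO1, the last near the shares of all genes. The glutamate transporter Slc1a2 rose by 1.49 (adjusted p = 3.3e-07) in ACLY KO and 2.42 (adjusted p = 9.1e-09) in DKO1, and Slc7a7, which exchanges cationic amino acids, rose by 1.13 (adjusted p = 0.00046) in ACSS2 KO and 1.79 (adjusted p = 2.6e-06) in DKO1.

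Targets of p53, a stress factor that also induces Sesn2 and Gdf15, were also counted. Of 16, 4 rose and 2 fell in ACSS2 KO, 1 rose and 6 fell in ACLY KO, and 4 rose and 5 fell in DKO1, where the shares were near those of all genes. Ccng1 changed by 0.10 (adjusted p = 0.31) in ACSS2 KO and 0.54 (adjusted p = 1.8e-05) in DKO1, and Plk2 by -0.88 (adjusted p = 4e-07) and -0.54 (adjusted p = 5.6e-06).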

How the data were processed

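Poly(A) RNA was sequenced with 75-base single-end reads from 14 libraries. The authors aligned reads with STAR to GRCm38 (mm10) and normalized with DESeq2 (version 1.0.1 in the submitters' processing notes), and deposited a signal per gene, estimated reads divided by factors specific to gene and library. The method and annotation of gene assignment are not given in the sources used here. Values were not whole numbers and no whole reads could be recovered, so count models were not run and the sequencing depth is unknown.

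Of 24972 rows, 26 with date-like names were left out. log2(value + 1) was fitted with limma 3.58.1 (R 4.3.3) with an intensity trend over 12693 genes with a mean of at least 10, with 1 coefficient per genotype and Benjamini-Hochberg adjustment, after the procedure was tested on simulated data. The interaction is (DKO1 - ACLY KO) - (ACSS2 KO - WT). Levels per length use the longest GENCODE transcript. The text gives values per library for 16 set genes and, by role, for the 3 genes with the largest absolute change among those called in a pairwise comparison, ranges or changes for the rest, and of each further list the 2 genes with the smallest adjusted p in DKO1 against WT. The members and lists were chosen with earlier results of these data known. Alternatives were another added constant, filters, normalizations, a correction for transcript length, a replicate block, separate fits and leaving out libraries.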

Additional observations from a re-analysis of the deposited data

Results flagged for a closer look

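For 23 of the 38 genes the change that went with ACSS2 loss differed between WT and ACLY KO cells by the interaction test of limma (adjusted p under 0.05). Each background had 1 clone without ACSS2, so the difference cannot be told apart from one between clones. All 23 interactions were below zero on the log2 scale. Of all genes tested, 15.1% lay below zero and 12.0% above at this threshold. Among the genes grouped as transcription factors, the 23 included Atf5 (-1.23), Ddit3 (-0.89) and the pseudokinase Trib3 (-1.33). The serine and one-carbon enzymes were Psat1 (-0.65), Shmt2 (-1.40), Mthfd2 (-0.61) and Aldh1l2 (-1.45). The other amino acid enzymes were Asns (-0.49), Aldh18a1 (-1.21), Pycr1 (-0.48), Cth (-3.16), Cbs (-1.76) and Chac1 (-1.27). Of the transporters, Slc7a11 (-2.30), Slc7a5 (-0.85), Slc3a2 (-0.47), Slc6a9 (-1.30) and Slc1a4 (-0.70) differed. The secreted factors and receptor were Fgf21 (-2.61), Stc2 (-2.30) and Vldlr (-1.64), and the brakes on growth were Sesn2 (-2.34) and Ddit4 (-1.08).

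In 4 of 76 groups of 4 libraries, 1 library stood far from the other three by Dixon's criterion, where chance gives about 1 in 20. WT replicate 2 held 743.8 normalized counts of Cebpb (others 306.9 to 353.2), 3034.7 of Cebpg (others 2560 to 2587) and 1953.5 of Mthfd1l (others 2019 to 2032), and ACLY KO replicate 2 held 414.3 of Ddit4 (others 473.9 to 483.3).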

How the results depend on the processing

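No result changed direction past the threshold in any alternative run. Counts of genes called, both directions together, were 22 in ACLY KO against WT, 28 in ACSS2 KO against WT, 26 in DKO1 against WT, 15 in DKO1 against ACLY KO, 23 in DKO1 against ACSS2 KO and 23 in the interaction. Leaving out 1 library at a time gave 20 to 26, 27 to 33, 24 to 29, 12 to 17, 22 to 27 and 21 to 25, in that order. The stricter limits gave 3, 8, 4, 1, 5 and 7. When only the groups compared were fitted, DKO1 against ACLY KO fell to 9 calls, and the interaction, which needs all genotypes, could not be fitted. Without all 4 leaning libraries, a setting chosen after seeing the data, the counts were 27, 34, 33, 19, 27 and 32, and 2 of 137 calls were lost. With the replicate number as a block the counts were 22, 28, 25, 14, 24 and 23. Correlations of deviations between the 18 same-numbered pairs of libraries ran from -0.431 to 0.446, with 5 over 0.1. Those between the 55 differently numbered pairs ran from -0.497 to 0.619, with 18 over 0.1. The lean to short or long transcripts enters these deviations, so they cannot tell whether the numbers pair the libraries. Of 137 calls for a gene in a comparison, 12 of 114 were lost when only the groups compared were fitted, 5 of 137 with length correction and 5 of 137 with equal library totals, which put the median of all genes at 0.10 in ACLY KO against WT, 0.11 in ACSS2 KO against WT and -0.16 in the interaction, from -0.01, 0.0009 and -0.01. The causes of these moves were not tested. Depth is unknown, so low genes such as Fgf21 and Slc7a3 are limited by reads that cannot be counted here.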
